A study of Mus musculus with 12 samples.

Results

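Dual-specificity MAP kinase phosphatases are the enzymes that switch MAP kinases off, and 10 of their genes were followed across 12 poly-A RNA sequencing libraries of cultured mouse glia. The 10 genes (Dusp1, Dusp2, Dusp4, Dusp5, Dusp6, Dusp7, Dusp8, Dusp10, Dusp14 and Dusp16) were taken by symbol from a table of 43322 genes. All 10 were among the 17077 genes that passed the low-count filter and were tested. The cells were primary cultures of postnatal cortex from wild-type CD1 mice aged 3 to 5 days, labelled as astrocytes and grown in serum with epidermal growth factor. One group of 4 libraries received 3 µM thapsigargin for 60 min, which blocks the SERCA pumps that load the endoplasmic reticulum with calcium. Another 4 were kept in calcium-free medium with the calcium chelator EGTA for 60 min, and 4 controls received vehicle. The study asked which calcium signalling components change when stores are emptied or calcium entry is stopped.

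MAP kinases such as ERK, JNK and p38 become active when a threonine and a tyrosine of their activation loop are phosphorylated, and dual-specificity phosphatases remove both phosphates. Several of these phosphatases are immediate early or ERK-induced genes, so that their RNA forms a negative feedback on the pathway that induces them. They differ in place and target. Dusp1, Dusp2, Dusp4 and Dusp5 encode inducible nuclear enzymes, Dusp6 and Dusp7 encode cytoplasmic enzymes that prefer ERK, and Dusp8, Dusp10 and Dusp16 encode enzymes that act mainly on JNK and p38. Dusp14 encodes a small enzyme without the amino-terminal docking domain of the others.

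Library totals ran from 36.2 to 42.6 M counts. Astrocyte markers summed to 5694 to 7863 CPM per library (counts scaled to a library of 1000000), against 78.4 to 163 CPM for microglia, 355 to 458 CPM for neuron, 1641 to 2091 CPM for oligodendrocyte lineage and 1689 to 2240 CPM for endothelial and mural markers and no marker was at 0 throughout a group. Microglial markers summed to 78.4 to 121 CPM with thapsigargin, 92.4 to 138 CPM in calcium-free medium and 96.4 to 163 CPM in controls. The low end of each range was replicate 4. Replicates 1 to 3 had 113 to 121, 130 to 138 and 152 to 163 CPM in the same order of groups, without overlap. Of 10 microglial markers 0 were called higher and 2 lower with thapsigargin, and 0 in calcium-free medium. Of 10 astrocyte markers 1 was called higher and 3 lower with thapsigargin, and 0 in calcium-free medium. Over all tested genes, 16.4% were called higher and 14.8% lower with thapsigargin, and 3.78% and 1.55% in calcium-free medium. Fewer cells of a type and less RNA per cell cannot be told apart in such bulk samples, and the part of cell makeup in the phosphatase values was not tested. Replicate 4 of every group stood apart. It had Xist at 588 to 740 CPM, where the other 9 libraries had at most 0.319 CPM. The Y-linked genes Ddx3y, Eif2s3y, Kdm5d and Uty summed to 0.0481 to 0.215 CPM in it and to 198 to 221 CPM in the others. By these genes replicate 4 was female and the others male. It also had fibroblast markers at 363 to 561 CPM, where the others had 1161 to 1516 CPM, so sex and culture makeup cannot be told apart in replicate 4. The labels call the 4 samples of a group biological replicates and describe a culture as made from 1 mouse, without saying which libraries share a culture, so p-values measure the spread between these samples.

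The first bases around the transcription start are shown for 4 of the genes, chosen with their responses, given further on, already known. Dusp1 and Dusp8 share the motif marked below and differ in their calls. Dusp5 and Dusp8 share their calls and differ in the motif marked. A link between motif and response was not tested. The windows are from RefSeq on GRCm38.p6, hold the 250 bases before the start and the 50 bases from the start on, and are read 5′ to 3′ on the gene's strand. They lie at chr17:26508423-26508722 on the minus strand for Dusp1, chr7:142095235-142095534 on the minus strand for Dusp8, chr19:53528895-53529194 on the plus strand for Dusp5 and chr1:184034131-184034430 on the plus strand for Dusp10. Capitals mark the cyclic AMP response element (CRE, TGACGTCA) in Dusp1 and Dusp8 and the CArG box, the site of serum response factor, in Dusp5.
Dusp1: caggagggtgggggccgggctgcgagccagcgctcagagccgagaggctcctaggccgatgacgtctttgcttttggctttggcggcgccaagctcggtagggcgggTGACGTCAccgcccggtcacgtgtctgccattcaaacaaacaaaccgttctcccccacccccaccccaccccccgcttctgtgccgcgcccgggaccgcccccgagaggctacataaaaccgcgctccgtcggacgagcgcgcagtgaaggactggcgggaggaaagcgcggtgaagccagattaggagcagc
Dusp8: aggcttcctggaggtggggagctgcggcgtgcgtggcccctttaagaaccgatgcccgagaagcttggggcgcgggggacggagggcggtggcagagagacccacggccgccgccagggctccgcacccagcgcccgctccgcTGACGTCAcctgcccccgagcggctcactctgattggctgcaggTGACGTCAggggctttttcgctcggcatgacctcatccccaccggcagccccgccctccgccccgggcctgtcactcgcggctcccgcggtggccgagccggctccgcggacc
Dusp5: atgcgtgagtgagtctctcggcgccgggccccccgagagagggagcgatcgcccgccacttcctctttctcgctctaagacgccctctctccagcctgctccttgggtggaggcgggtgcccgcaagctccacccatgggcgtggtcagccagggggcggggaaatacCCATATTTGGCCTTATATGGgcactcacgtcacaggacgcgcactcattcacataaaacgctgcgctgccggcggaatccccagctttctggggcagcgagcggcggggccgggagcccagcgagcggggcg
Dusp10: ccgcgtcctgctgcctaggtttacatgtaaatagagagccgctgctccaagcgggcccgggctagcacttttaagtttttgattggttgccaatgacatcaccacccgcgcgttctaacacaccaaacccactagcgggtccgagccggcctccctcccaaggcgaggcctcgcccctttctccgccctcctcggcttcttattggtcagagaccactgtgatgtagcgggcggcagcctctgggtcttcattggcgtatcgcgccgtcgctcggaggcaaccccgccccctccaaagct

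Windows were found for 9 of the 10 genes. The CRE was in the windows of Dusp1 (starting 143 bases before the start) and Dusp8 (107 and 63 bases before it), 2 of the 9 windows, and in 1.79% of all 32851 windows. A CArG box was in 1 of the 9, that of Dusp5, which held 2 of them end to end starting 82 and 72 bases before the start. This motif was in 1.63% of all windows. The shorter CRE core TGACG, which lies within the CRE, was in 5 of the 9 (Dusp1, Dusp2, Dusp5, Dusp8 and Dusp16) and in 20.8% of all windows. An EGR motif (GCGGGGGCG or GCGTGGGCG) was in that of Dusp2 and in 3.47% of all windows. CCAAT was in 5 of the 9 and 37.4% of all, and the SP1 motif GGGGCGGGG in 4 of the 9 and 11.45% of all. None of the 9 held the AP-1 motif TGANTCA (7.81% of all windows), the ETS motif CCGGAAGT (3.89%), the ATF4 motif TGATGNAAN (3.95%) or TATAAA (13.6%). The windows of Dusp6 and Dusp7 held only CCAAT, that of Dusp14 held none of the 10 motifs, and that of Dusp10 held only CCAAT and SP1. Both strands were searched, and a match describes letters only.

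Per exon length, the 10 genes spanned a wide range of levels. The highest level in control cells was that of Dusp14 at 45.1 ± 2.98 TPM (SD, n = 4; reads per exon length, scaled to a sum of 1000000), and the lowest that of Dusp2 at 0.287 ± 0.198 TPM. The order in controls was Dusp14, Dusp6 (41.8 ± 2.87), Dusp16 (29.9 ± 1.13), Dusp4 (23.8 ± 1.13), Dusp1 (21.8 ± 3.54), Dusp5 (14.4 ± 1.74), Dusp7 (7.81 ± 1.20), Dusp8 (4.55 ± 0.842), Dusp10 (3.83 ± 0.180) and Dusp2, all in TPM. Neighbours whose control libraries overlapped were Dusp14 and Dusp6, Dusp4 and Dusp1, and Dusp8 and Dusp10.

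The order differed in treated cells. Dusp6 was first and Dusp1 second in both treated groups. Dusp6 had 124.0 ± 7.60 TPM with thapsigargin, 98.3 ± 6.48 TPM in calcium-free medium and 41.8 ± 2.87 TPM in controls. Dusp1 had 69.8 ± 7.08 TPM with thapsigargin, 57.9 ± 14.4 TPM in calcium-free medium and 21.8 ± 3.54 TPM in controls. Dusp1 libraries overlapped those of Dusp14, the next gene, in calcium-free medium and not with thapsigargin. The 10 genes summed to 367 to 390 TPM with thapsigargin, 260 to 328 TPM in calcium-free medium and 181 to 204 TPM in controls, and the 3 groups of libraries did not overlap. TPM was taken without the scaling between libraries that CPM and the tests used, which limits comparisons between groups. Dusp14 had 48.8 to 52.0 TPM with thapsigargin and 41.7 to 48.3 TPM in controls, without overlap, while its CPM overlapped. Dusp6 made up 31.4 to 34.9% of that sum in the thapsigargin libraries, 32.0 to 34.6% in calcium-free medium and 19.5 to 23.8% in controls. Dusp14 made up 13.2 ± 0.596% with thapsigargin, 14.8 ± 0.761% in calcium-free medium and 23.3 ± 1.19% in controls.

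**Figure D1:**
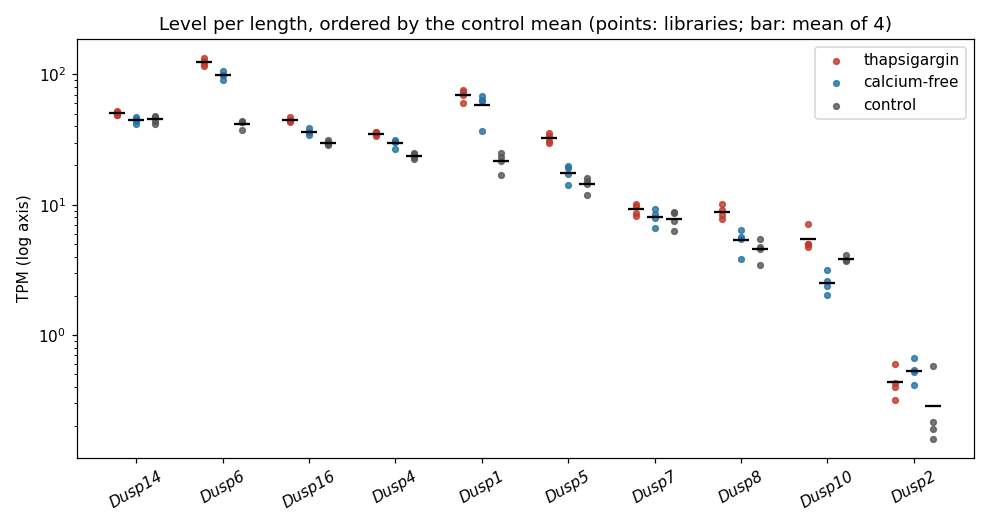
Level per exon length (TPM, log axis) of the 10 genes in each library, ordered by the control mean, with thapsigargin, calcium-free and control libraries side by side and a bar at each mean of 4. Dusp6 is highest in both treated groups, and Dusp14 is highest on average in control, with 45.1 TPM.

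Of the 10 phosphatase genes, 6 rose and 0 fell with thapsigargin (Dusp1, Dusp4, Dusp5, Dusp6, Dusp8 and Dusp16). Over all tested genes, 16.4% were called higher and 14.8% lower. The median log2 fold change of the 10 was 0.46, and that of all 17077 genes was -0.05. In calcium-free medium 4 rose (Dusp1, Dusp4, Dusp6 and Dusp16) and 1, Dusp10, fell. Of all genes 3.78% were called higher and 1.55% lower there (646 and 265 genes, or 524 and 372 with upper quartile scaling), and the median of the 10 was 0.26 where that of all genes was -0.01. Set directly against calcium-free medium, thapsigargin gave 5 higher (Dusp5, Dusp6, Dusp8, Dusp10 and Dusp16) and 0 lower, where 14.6% of all genes were called higher and 13.2% lower. Without the libraries numbered 4, the counts were 7 higher for thapsigargin against control, 5 higher and 1 lower for calcium-free medium against control, and 6 higher for thapsigargin against calcium-free medium. Both treatments were compared with the same 4 control libraries.

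**Figure D2:**
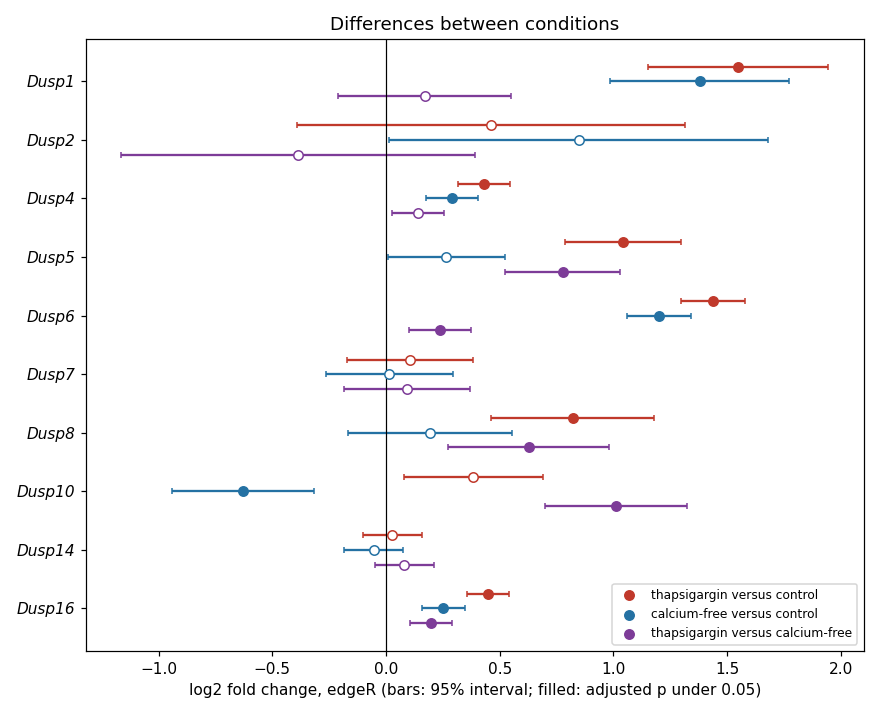
Log2 fold changes of the 10 genes with 95% intervals (x axis) for thapsigargin versus control, calcium-free versus control and thapsigargin versus calcium-free, with filled points where the adjusted p was under 0.05. Dusp1 and Dusp6 lie above 1 in both comparisons with control, and Dusp10 lies at 0.38 with thapsigargin and at -0.63 in calcium-free medium.

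Among the nuclear enzymes, Dusp1 showed the largest change. Dusp1 (gene 19252, GRCm39 chromosome 17, 26724565 to 26727446, minus strand), which dephosphorylates p38, JNK and ERK, had 48.6, 50.8, 52.4 and 41.6 CPM with thapsigargin, 47.3, 46.5, 51.0 and 27.1 CPM in calcium-free medium and 16.7, 17.7, 19.1 and 12.6 CPM in controls. Every treated library was above every control, and replicate 4 was lowest in each group. The log2 fold change was 1.55 ± 0.18 (SE) with thapsigargin (adjusted p = 4.95e-05) and 1.38 ± 0.18 in calcium-free medium (adjusted p = 0.00127). By fitted log2 fold change, Dusp1 ranked 39 from the top with thapsigargin and 8 from the top in calcium-free medium among the 17077 tested genes. The treatments differed by 0.17 (95% interval -0.21 to 0.55, adjusted p = 0.523), so a difference between them was not called. Its CRE-bearing window is printed above.

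Dusp5 separated the treatments. Dusp5 (gene 240672, chromosome 19, 53517576 to 53530240, plus strand), a nuclear phosphatase specific for ERK, had 19.3, 21.5, 19.9 and 23.1 CPM with thapsigargin, 13.8, 12.1, 13.3 and 9.80 CPM in calcium-free medium and 11.4, 10.2, 10.9 and 8.35 CPM in controls. All thapsigargin libraries were above the rest, and calcium-free and control libraries overlapped. With thapsigargin it rose by 1.04 ± 0.12 on the log2 scale (adjusted p = 3.66e-05). In calcium-free medium it was at 0.26 ± 0.12 (adjusted p = 0.268), higher than the same-numbered control in 4 of 4 pairs. Without the libraries numbered 4 it was called there, at 0.28 (adjusted p = 0.0155), while with the replicate block the adjusted p was 0.187. The direct difference between thapsigargin and calcium-free medium was 0.78 ± 0.12 (adjusted p = 4.38e-04).

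Dusp4 moved less and in every pair. Dusp4 (gene 319520, chromosome 8, 35274448 to 35289106, plus strand), a nuclear phosphatase of ERK and JNK, had 72.9, 74.5, 74.9 and 71.1 CPM with thapsigargin, 68.0, 68.3, 69.7 and 59.9 CPM in calcium-free medium and 53.9, 57.3, 55.9 and 50.6 CPM in controls. The 3 groups did not overlap. It rose by 0.43 ± 0.05 with thapsigargin (adjusted p = 6.38e-05) and by 0.29 ± 0.05 in calcium-free medium (adjusted p = 0.00870). The direct difference of 0.14 ± 0.05 had adjusted p = 0.0614, and adjusted p = 0.00130 with the replicate block.

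Dusp2 (gene 13537, chromosome 2, 127178079 to 127180297, plus strand), a nuclear phosphatase best known from activated immune cells, was barely detected. It had 10, 8, 15 and 11 reads with thapsigargin, 12, 10, 12 and 17 reads in calcium-free medium and 15, 4, 5 and 5 reads in controls. The 2 treated groups overlapped each other, and both overlapped the controls only through control replicate 1. Its log2 fold changes were 0.46 ± 0.39 with thapsigargin (adjusted p = 0.424) and 0.85 ± 0.38 in calcium-free medium (adjusted p = 0.273), and both were called only when control replicate 1 was left out (1.07, adjusted p = 0.0383, and 1.46, adjusted p = 0.0356). With all libraries neither change was called. The 95% intervals, not adjusted for the number of genes, were -0.39 to 1.32 with thapsigargin and 0.01 to 1.68 in calcium-free medium.

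**Figure D3:**
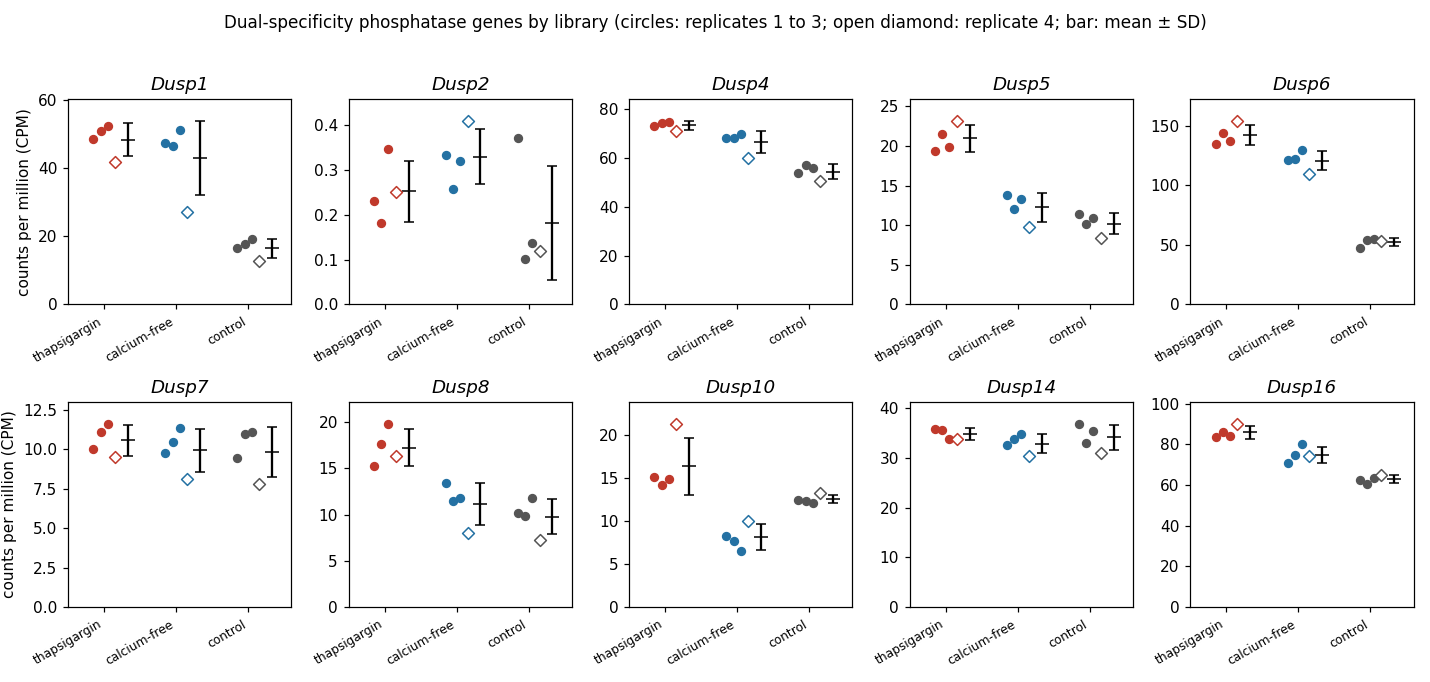
CPM of each of the 10 genes (y axis, 1 panel per gene) in the thapsigargin, calcium-free and control libraries, with replicates 1 to 3 as circles, replicate 4 as an open diamond and the mean ± SD of 4 beside them. Dusp6 libraries reach 134 CPM or more with thapsigargin and 109 CPM or more in calcium-free medium, while controls stay at or below 55.0 CPM.

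Dusp6 gave the smallest adjusted p of the 10 in both comparisons with control. Dusp6 (gene 67603, chromosome 10, 99098676 to 99103351, plus strand), the cytoplasmic ERK phosphatase and a textbook ERK feedback gene, had 134, 144, 137 and 154 CPM with thapsigargin, 122, 122, 129 and 109 CPM in calcium-free medium and 47.6, 53.9, 55.0 and 53.5 CPM in controls. The 3 groups did not overlap. The log2 fold change was 1.44 ± 0.06 with thapsigargin (adjusted p = 1.08e-07) and 1.20 ± 0.06 in calcium-free medium (adjusted p = 4.08e-06). It ranked 47 from the top with thapsigargin and 13 from the top in calcium-free medium. Thapsigargin exceeded calcium-free medium by 0.24 ± 0.06 (adjusted p = 0.0137).

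Dusp7, the other cytoplasmic ERK phosphatase, did not pass the test in any comparison. Dusp7 (gene 235584, chromosome 9, 106245831 to 106252923, plus strand) had 10.0, 11.1, 11.6 and 9.49 CPM with thapsigargin, 9.73, 10.5, 11.3 and 8.09 CPM in calcium-free medium and 9.44, 10.9, 11.1 and 7.77 CPM in controls. All 3 groups overlapped. The 95% intervals of its log2 fold change ran from -0.17 to 0.38 with thapsigargin (adjusted p = 0.589) and from -0.26 to 0.29 in calcium-free medium (adjusted p = 0.990), ranges that end well short of the values of Dusp6.

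The JNK and p38 phosphatases split 3 ways. Dusp8 (gene 18218, chromosome 7, 141633224 to 141649799, minus strand) rose with thapsigargin and was not called in calcium-free medium. It had 15.2, 17.6, 19.8 and 16.3 CPM with thapsigargin, 13.4, 11.5, 11.8 and 8.02 CPM in calcium-free medium and 10.2, 9.90, 11.8 and 7.25 CPM in controls. All thapsigargin libraries were above all others, and the other groups overlapped. The log2 fold change was 0.82 ± 0.16 with thapsigargin (adjusted p = 0.00223) and 0.19 ± 0.17 in calcium-free medium (adjusted p = 0.667), and the direct difference was 0.63 ± 0.16 (adjusted p = 0.0128). Its window, printed above, holds both CREs.

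Dusp10 lay on opposite sides of control in the 2 treatments. Dusp10 (gene 63953, chromosome 1, 183766575 to 183807833, plus strand) had 15.1, 14.2, 14.8 and 21.3 CPM with thapsigargin, 8.29, 7.61, 6.46 and 10.0 CPM in calcium-free medium and 12.5, 12.3, 12.1 and 13.2 CPM in controls. No library of any group overlapped another group. In calcium-free medium it fell by 0.63 on the log2 scale (SE 0.14, adjusted p = 0.0276), lower in 4 of 4 pairs. That call was lost when calcium-free replicate 2 or 3 or any 1 of the 4 control replicates was left out (adjusted p from 0.0524 to 0.0914, log2 fold change from -0.64 to -0.53). With thapsigargin it was at 0.38 ± 0.14 (adjusted p = 0.0563), higher in 4 of 4 pairs, and the replicate block gave 0.37 (adjusted p = 4.84e-04). Without thapsigargin replicate 4 alone, the library at 21.3 CPM, the value was 0.23 (adjusted p = 0.145). Without replicate 4 of every group the value was 0.30, and it was called. Of the 19 alternatives, 9 called this rise and 10 did not, with values from 0.23 to 0.45. Thapsigargin exceeded calcium-free medium by 1.01 ± 0.14 (adjusted p = 3.08e-04), and this difference was called under all 19 alternatives, at 0.86 to 1.14.

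Dusp16 rose in both treatments, and by more with thapsigargin. Dusp16 (gene 70686, chromosome 6, 134692431 to 134769687, minus strand), a JNK-preferring phosphatase, had 83.5, 86.0, 84.0 and 90.1 CPM with thapsigargin, 70.7, 74.6, 80.1 and 74.3 CPM in calcium-free medium and 62.3, 60.6, 63.7 and 65.1 CPM in controls. The 3 groups did not overlap. It rose by 0.45 ± 0.04 with thapsigargin (adjusted p = 1.09e-05) and by 0.25 ± 0.04 in calcium-free medium (adjusted p = 0.00635), with a direct difference of 0.20 ± 0.04 (adjusted p = 0.00483).

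Dusp14, the most abundant of the 10 per length in controls, passed no test. Dusp14 (gene 56405, chromosome 11, 83938859 to 83960016, minus strand) had 35.9, 35.7, 33.8 and 33.8 CPM with thapsigargin, 32.6, 33.9, 34.8 and 30.4 CPM in calcium-free medium and 36.9, 33.1, 35.5 and 31.1 CPM in controls. All groups overlapped. The 95% intervals of its log2 fold change were -0.10 to 0.16 with thapsigargin (adjusted p = 0.778) and -0.18 to 0.08 in calcium-free medium (adjusted p = 0.781), so a change of the size of Dusp16 with thapsigargin lies outside both.

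**Figure D4:**
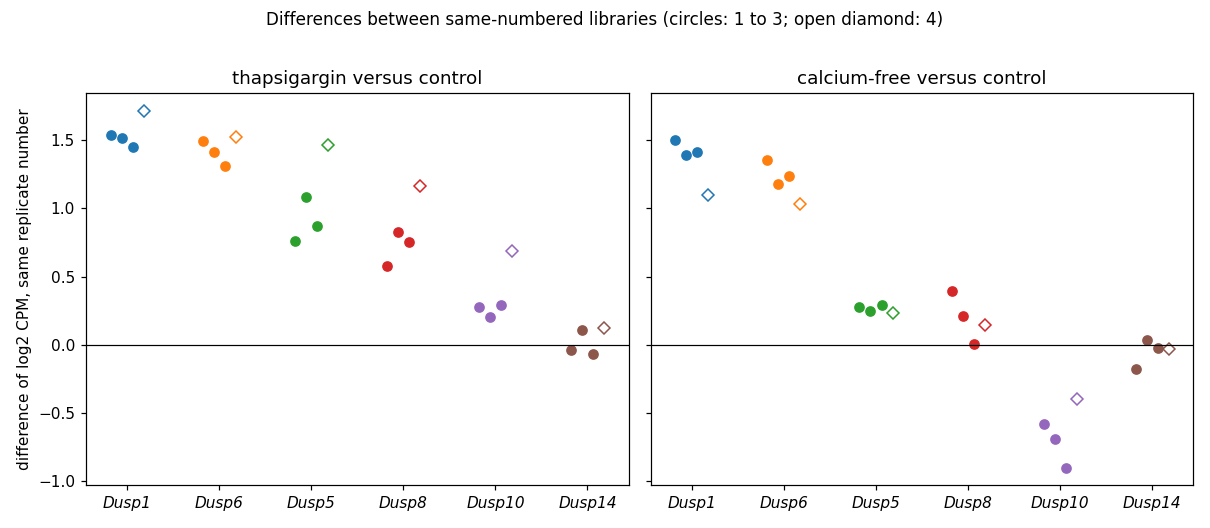
Differences of log2 CPM between treated and control libraries of the same replicate number (y axis) for 6 of the genes, with thapsigargin on the left and calcium-free medium on the right, numbers 1 to 3 as circles and number 4 as an open diamond. The diamond lies above the circles for every gene shown with thapsigargin, by little for Dusp6 and Dusp14. Of all 10 genes this held for 8, and pair 4 lay within the others for Dusp2 and Dusp16, which are not shown. In calcium-free medium the diamond lies below the circles for Dusp1, Dusp6 and Dusp5, above them for Dusp10 and within them for Dusp8 and Dusp14.

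Libraries of the groups did not overlap for 7 of the 10 genes with thapsigargin against control, 5 of 10 in calcium-free medium against control and 6 of 10 between the treatments, counted in either direction. Over all 17077 tested genes, in either direction, the groups did not overlap for 31.8% with thapsigargin against control, 10.5% in calcium-free medium against control and 28.3% between the treatments. Other genes on the opposite strand overlap Dusp6, Dusp8 and Dusp16, and held at most 10 reads in any library where the members held 304 or more.

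The MAP kinases, which these phosphatases act on, were tested beside them, and so were lists of MAP kinase kinases and MAP kinase kinase kinases. With thapsigargin, 16.4% of all tested genes were called higher and 14.8% lower. Of 14 MAP kinase genes, 1 rose and 2 fell with thapsigargin, among them Mapk3, which encodes an ERK kinase, at -0.14 ± 0.04 (adjusted p = 0.0205), and Mapk10, a JNK gene, at -0.10 ± 0.03 (adjusted p = 0.0308). With the replicate block 2 rose and 3 fell. Only 1 was called without the low-count filter, in a fit of the 2 groups alone, without thapsigargin replicate 2 or without thapsigargin replicate 3, 0 without control replicate 1, 2 or 3, and 5 without the libraries numbered 4. Of 7 MAP kinase kinases 4 fell and 0 rose, with Map2k4, which activates JNK, at -0.20 ± 0.04 (adjusted p = 9.36e-04) and Map2k2 at -0.18 ± 0.03 (adjusted p = 0.00119), and 2 fell without the low-count filter. Of 24 tested MAP kinase kinase kinases, 10 rose and 0 fell, with Map3k14 at 42.2 ± 1.38 CPM with thapsigargin and 13.9 ± 0.838 CPM in controls (adjusted p = 7.20e-08) and Map3k2 at a log2 fold change of 0.43 ± 0.06 (adjusted p = 1.62e-04). In calcium-free medium 0 of 14 MAP kinases and 0 of 7 MAP kinase kinases were called by edgeR with TMM scaling and all libraries. Other settings called 1 or 2, among them DESeq2 (1 in each list), relative log expression factors (1 MAP kinase), upper quartile factors (1 MAP kinase kinase), the replicate block (2 in each list) and the fit without calcium-free replicate 1 (1 MAP kinase and 2 MAP kinase kinases). Of the 24 MAP kinase kinase kinases, 1 rose in calcium-free medium, Braf at 0.22 ± 0.05 (adjusted p = 0.0320). Another 1 fell, Taok2 at -0.65 ± 0.11 (adjusted p = 0.00650). A fit of only those 2 groups called 0 higher and 1 lower, and the replicate block 3 and 3. Over all genes, 3030 had an unadjusted p under 0.05 in calcium-free medium against control, and 3.78% were called higher and 1.55% lower.

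Downstream and accessory genes moved in both directions with thapsigargin, as did all tested genes, of which 16.4% were called higher and 14.8% lower. The shares of all genes in calcium-free medium were 3.78% higher and 1.55% lower. Of 11 MAP kinase activated kinases 3 fell and 0 rose, led by Mknk2, a kinase of the translation factor eIF4E, at -0.52 ± 0.03 (adjusted p = 9.75e-07), and 1 rose and 4 fell with the replicate block. Mknk2 also fell in calcium-free medium, by 0.38 on the log2 scale (adjusted p = 1.47e-04). Of 12 scaffolds 2 rose and 1 fell, with Ksr1, the scaffold of the RAF-MEK-ERK module, at 0.69 ± 0.06 (adjusted p = 3.25e-06), and in calcium-free medium 2 rose and 1 fell, Ksr1 at 0.37 ± 0.06 (adjusted p = 0.00317). Of 10 other phosphatases and regulators of MAP kinases 1 rose and 4 fell (1 and 2 without the low-count filter), among them Pea15a, which holds ERK in the cytoplasm, at -0.17 ± 0.04 (adjusted p = 0.00324). Of 17 tested atypical and other dual-specificity phosphatases 5 rose and 0 fell (5 and 4 with the replicate block), with Dusp11 at 0.22 ± 0.03 (adjusted p = 2.98e-04). Dusp9, the remaining cytoplasmic ERK phosphatase, was at -0.15 with thapsigargin, -0.61 in calcium-free medium and 0.46 between the treatments, called in none. Of 8 ERK output genes outside the family 3 rose and 1 fell with thapsigargin and 2 rose in calcium-free medium (5 with the replicate block), with the receptor signalling inhibitor Spry4 at 1.18 ± 0.06 (adjusted p = 2.24e-07) and 0.76 ± 0.06 (adjusted p = 5.18e-05). Spry4 differed between thapsigargin and calcium-free medium by 0.43 ± 0.06 (adjusted p = 2.84e-04).

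The genes whose log2 CPM ran most alike with each phosphatase over the 12 libraries were named by Pearson r, as a description in which the 3 groups are shared. They were Zmat1 and Cipc for Dusp1 (r = 0.990 and 0.987), Jun and Enc1 for Dusp4 (0.993 and 0.990), and Zranb1 and Nfil3 for Dusp5 (0.985 and 0.981). For Dusp6 they were Kbtbd2 and Arc (0.989 each), for Dusp8 Ubac1 and Rrp8 (0.977 and 0.968), for Dusp10 Naa12 and Riox1 (0.974 and 0.973), and for Dusp16 Adnp and Ston1 (0.992 and 0.988). The closest genes of the 3 members called in no comparison were at 0.807 for Dusp2, 0.969 for Dusp7 and 0.894 for Dusp14.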

How the data were processed

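Poly-A RNA was measured in 12 libraries in 3 groups of 4, grouped by sample title. The authors deposited unnormalised estimated counts for each gene beside its exon length. The submitters' processing notes name featureCounts 1.6.4, STAR 2.7.2b, cutadapt 1.17, bcl2fastq 2.20.0.422 and the build GRCm39. The strand setting of the counting is not given in the sources used here. Of 120 values of the 10 genes 11 were not exactly whole as written, with no tolerance, and counts were rounded.

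All 17077 genes past the edgeR filter (minimum count 10 by group) entered 1 fit of 12 libraries with TMM scaling and the quasi-likelihood test of edgeR 4.0.16 (R 4.3.3), Benjamini-Hochberg adjusted within each of 3 contrasts, called under 0.05. Standard errors came from the test statistic. CPM used the scaled library sizes, and TPM the exon lengths without that scaling. DESeq2 1.42.0 and the other alternatives are in the closing section.

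The named genes were the 10 members, at most 2 called genes with the smallest p per pathway list and contrast, and the 2 genes most alike by r. Members and lists were chosen with earlier results of these data known. Promoter windows were RefSeq's on GRCm38.p6, another build than the counts.

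Libraries are numbered 1 to 4 in each group. Between libraries of the same number, deviations from their group's mean had r from 0.159 to 0.836 over genes. All 12 were above 0.1, the limit used for taking numbers as pairs. Different numbers among 1 to 3 were above it too, so this limit could not tell pairs apart there. Each group's mean included number 4, which stood apart, so a positive r among numbers 1 to 3 could arise without pairing. The main fit left the numbers out, and the replicate block is the alternative that uses them. Number 4 gave 0.814 to 0.836, and against numbers 1 to 3 of the other groups it gave -0.579 to -0.345. Among numbers 1 to 3, the same number gave 0.159 to 0.392 and different numbers 0.238 to 0.412, so shared numbers were no higher there. No 2 replicates agreed within sampling noise, with a chi-square of 1.66 or more per degree of freedom.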

Additional observations from a re-analysis of the deposited data

Results flagged for a closer look

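Of 30 groups of 4 libraries (10 genes in 3 groups), 2 held 1 library far from the other 3, where chance gives about 1 in 20. Dusp10 was at 21.3 CPM in thapsigargin replicate 4, and at 14.2 to 15.1 CPM in the other thapsigargin libraries. Replicate 4 also had the highest Dusp10 of its group in calcium-free medium and in control, at 10.0 and 13.2 CPM. Dusp2 was at 0.372 CPM in control replicate 1 (15 reads), and at 0.101 to 0.136 CPM in the other controls (4 to 5 reads).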

How the results depend on the processing

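Of 570 values of the 30 log2 fold changes of the 10 genes under 19 alternatives per contrast, 539 kept their direction and their side of the threshold, 18 newly passed it, 6 no longer passed it (all Dusp10 in calcium-free medium) and 7 changed sign. The sign changes were in values near 0 that were never called. They were Dusp14 with thapsigargin (-0.0015 with upper quartile factors, and -0.0149 to 0.0669 when 1 library was left out) and Dusp7 in calcium-free medium (-0.0144 with upper quartile factors, and -0.0821 to 0.0971 when 1 library was left out). Counts of members called ran from 6 to 7, 4 to 5 and 5 to 6 in the 3 contrasts when 1 library was left out. Besides Dusp10 with thapsigargin and Dusp4 between the treatments, the replicate block changed no call of a member.

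Over all genes the counts moved more. The replicate block called 8737 genes with thapsigargin against control (5331 without it), 2968 in calcium-free medium against control (911 without it) and 8428 between the treatments (4757 without it). For calcium-free medium against control, DESeq2 called 1464, a fit of only those 2 groups 500, and the fit without replicate 4 of every group 2659. When 1 library was left out this count ran from 372 (without calcium-free replicate 2) to 1449 (without calcium-free replicate 1), and it was 401 to 452 without calcium-free replicate 3 or control replicate 1, 2 or 3. The causes were not tested. Of 513 values of the pathway list counts 75 moved by over 1.5 times. The levels per length without the libraries numbered 4 were held against the SD of all 4 libraries. Leaving out 1 library of 4 cannot move a mean by that SD, so the outcome, 0 of 30 moved, decides nothing. Dusp2, at 4 to 17 reads a library, had the fewest reads of the 10 genes.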

Other observations

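Between thapsigargin and calcium-free medium, the difference of log2 CPM in the libraries numbered 4 lay above pairs 1 to 3 for 8 of the 10 genes, below them for Dusp2 and within them for Dusp10. Dusp14 and Dusp16 were above by little, at 0.15 and 0.28 in pair 4 with highest values of 0.14 and 0.24 in pairs 1 to 3. The genes given here were chosen after their values were seen. The difference in pair 4 was 0.62 for Dusp1, where pairs 1 to 3 had 0.04, 0.13 and 0.04. It was 1.24 for Dusp5, where pairs 1 to 3 had 0.48, 0.83 and 0.58, and 0.49 for Dusp6, where they had 0.15, 0.24 and 0.08. Dusp5 in replicate 4 was the highest of its group with thapsigargin and the lowest in calcium-free medium and in control. With a single pair of this kind the difference between pairs was not tested.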
